A study of Macaca mulatta with 51 samples.

Results

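Glycolysis splits glucose into pyruvate in the cytosol, pyruvate dehydrogenase and pyruvate carboxylase carry pyruvate into mitochondrial metabolism, and the tricarboxylic acid (TCA) cycle oxidizes the acetyl group that results. The genes of these enzymes were examined here in subcutaneous adipose tissue (AT) and gastrocnemius skeletal muscle (SM) of rhesus macaques. Members were chosen by gene symbol from a list of 41 genes, of which 39 were matched in the table of 16033 genes: 17 of glycolysis (with LDHA), 6 of the conversion of pyruvate to acetyl-CoA or oxaloacetate, and 16 of the TCA cycle. PFKP and IDH3G are not analysed here.

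Several of these steps have isozymes encoded by separate genes, so a tissue can differ in which gene it uses as well as in how much. Hexokinase 2, phosphofructokinase M, phosphoglycerate mutase 2 and beta-enolase are typical of striated muscle, while the liver-type phosphofructokinase, alpha-enolase and phosphoglycerate mutase 1 are widespread. In adipocytes, glycolysis supplies glycerol for triglyceride, and citrate made from pyruvate supplies carbon for fatty acid synthesis. In muscle fibers the same reactions serve mainly the supply of ATP.

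The study took biopsies from the same animals before treatment (pre-treatment), at the end of 12 weeks of daily subcutaneous human FGF21 (post-treatment) and 16 weeks after the last dose (washout). The animals were 10 obese macaques, 5 males and 5 ovariectomized females, 11 to 22 years old, whose high-fat feeding had lasted 2 years or longer. The dose rose from 10 to 1000 µg/kg/day, except that 1 animal stayed at 300 µg/kg/day. Every animal shares the diet, and every animal was treated. The paper reports that the animals lost body weight during treatment and regained it during washout. No untreated animals are among these samples, so treatment, weight change and the passage of time cannot be told apart.

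RNA-seq counts were at hand for 27 AT libraries (10 pre-treatment, 9 post-treatment, 8 washout) and 21 SM libraries (6, 8 and 7), with 14455195 to 23940980 counts each. Levels are given as CPM, counts scaled to a common library size within a tissue, as the median of a group with its lowest and highest library in parentheses. Log2 fold changes are given ± SE. Genes were tested with edgeR's quasi-likelihood test with the animal as a block. The edgeR adjusted p is Benjamini-Hochberg adjusted over all genes tested in a tissue (13367 in AT, 12617 in SM). A gene was called differentially expressed (DE) when it was under 0.05 and the log2 fold change was beyond 0.26 in either direction. All 39 genes passed the filter on low counts in both tissues. AT expressed the 4 adipocyte markers in the table at a summed 9439 CPM or more in every library, and SM expressed 9 skeletal muscle markers at a summed 57086 CPM or more, so each tissue carried its own markers. In bulk tissue, fewer cells of a type and less RNA per cell cannot be told apart.

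In AT, genes of all 3 stages fell post-treatment. Of the 39 genes, 17 were DE and lower and 0 were DE and higher, against 8.49% of all tested genes lower and 6.98% higher. The log2 fold change was below 0 for 36 of the 39 genes with a median of -0.31, whereas 45.7% of all genes were below 0 with a median of 0.03. The 17 comprised 7 of 17 glycolytic genes, 4 of 6 pyruvate genes and 6 of 16 TCA cycle genes, and 13 of them were lower in all 9 animals with both biopsies. The pre- and post-treatment ranges overlapped for all 39 genes. After washout, 19 genes were DE and higher than post-treatment and 0 lower, against 17.6% and 17.8% of all genes, with a median log2 fold change of 0.27 against -0.00 for all genes. These comparisons share the post-treatment libraries, so the return is not independent of the fall.

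**Figure D1:**
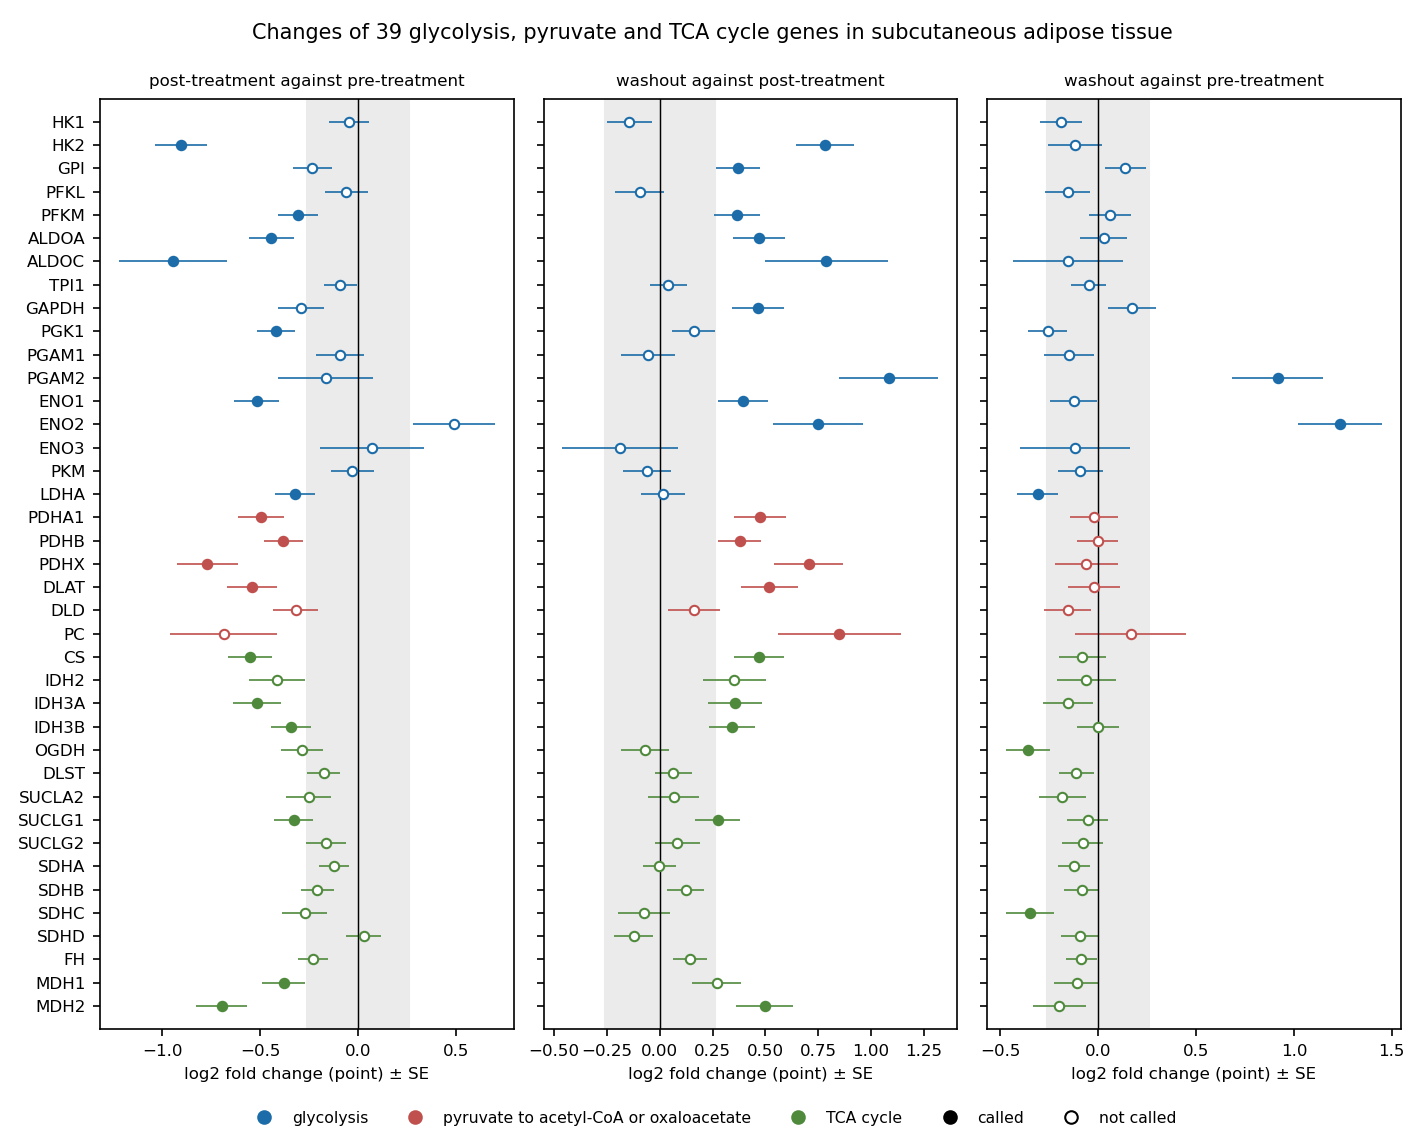
Log2 fold change with its SE (x axis) for each of the 39 genes in AT, by comparison (panels), with filled points for DE genes and a grey band inside the fold limit of 0.26. Post-treatment, 36 of 39 points lie left of 0 and 17 are filled. Washout against pre-treatment has 5 filled points, with ENO2 and PGAM2 on the right.

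Hexokinase phosphorylates glucose on entry into the cell, and HK2 is the insulin-responsive isozyme. HK2 was at 70.5 CPM (53.7 to 115) pre-treatment, 41.2 CPM (21.0 to 74.7) post-treatment and 76.7 CPM (42.4 to 103) at washout. It was the member with the smallest adjusted p of the 39, and it fell in 9 of 9 animals, by 46.5% (log2 fold change -0.90 ± 0.13, edgeR adjusted p = 8.59e-04). At washout it rose in 8 of 8 animals (log2 fold change 0.78 ± 0.14, edgeR adjusted p = 3.06e-04). HK1, the broadly expressed isozyme, was at 239 CPM (201 to 315) pre-treatment and 249 CPM (147 to 297) post-treatment, lower in 5 of 9 animals (log2 fold change -0.05 ± 0.10, edgeR adjusted p = 0.786). GPI, which converts glucose 6-phosphate to fructose 6-phosphate, was not DE post-treatment (log2 fold change -0.23 ± 0.10), and rose at washout from 388 CPM (305 to 466) to 507 CPM (426 to 562), with a log2 fold change of 0.37 ± 0.10 (edgeR adjusted p = 0.00945).

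Phosphofructokinase commits the sugar to glycolysis. PFKM, the muscle-type subunit, was at 47.0 CPM (40.3 to 60.3) pre-treatment and 40.8 CPM (30.0 to 44.4) post-treatment, DE by a narrow margin (log2 fold change -0.31 ± 0.10, edgeR adjusted p = 0.0484, lower in 7 of 9 animals), and rose at washout to 50.4 CPM (38.1 to 61.6), with a log2 fold change of 0.37 ± 0.11 (edgeR adjusted p = 0.0124). PFKL, the liver-type subunit, stayed at 115 CPM (89.2 to 145) and 114 CPM (86.8 to 159.8), with a log2 fold change of -0.06 ± 0.11 (edgeR adjusted p = 0.739). The aldolases cut fructose 1,6-bisphosphate into trioses. ALDOA was at 557 CPM (419 to 754), then 404 CPM (310.3 to 557) post-treatment and 546 CPM (448 to 857) at washout. It fell in 9 of 9 animals (log2 fold change -0.44 ± 0.12, edgeR adjusted p = 0.0190) and rose in 8 of 8 (log2 fold change 0.47 ± 0.12, edgeR adjusted p = 0.00578). ALDOC, the isozyme best known from brain, ranged more widely, from 1996 CPM (1329 to 4573) pre-treatment to 1275 CPM (345 to 2635) post-treatment and 1768 CPM (1049 to 3801) at washout. Its fall (log2 fold change -0.94 ± 0.28, edgeR adjusted p = 0.0296) and rise (log2 fold change 0.79 ± 0.29, edgeR adjusted p = 0.0395) passed the limits, with the lowest post-treatment level in animal 20275.

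The later steps, from triose phosphate to phosphoenolpyruvate, were mixed. TPI1, the triose isomerase, was at 227 CPM (184 to 263) pre-treatment and 213 CPM (169 to 235) post-treatment, and was not DE (edgeR adjusted p = 0.473). GAPDH, which makes NADH at the oxidation step, went from 810.0 CPM (601 to 1329) to 710.3 CPM (442 to 855), a difference that missed the threshold (log2 fold change -0.29 ± 0.12, edgeR adjusted p = 0.0896), and then rose in 8 of 8 animals to 910.4 CPM (671 to 1066), with a log2 fold change of 0.46 ± 0.12 (edgeR adjusted p = 0.00660). PGK1, which forms the first ATP, fell from 393 CPM (281 to 519.8) to 329.9 CPM (232 to 342) in 9 of 9 animals (log2 fold change -0.42 ± 0.10, edgeR adjusted p = 0.0112). At washout PGK1 was at 329 CPM (224 to 382) and was not DE against post-treatment (log2 fold change 0.16 ± 0.10). ENO1, the widespread enolase, fell in 9 of 9 animals from 768 CPM (617 to 1017) to 555 CPM (412 to 679), with a log2 fold change of -0.52 ± 0.11 (edgeR adjusted p = 0.00840), and rose in 8 of 8 to 665 CPM (586 to 957), with a log2 fold change of 0.39 ± 0.12 (edgeR adjusted p = 0.0141). PGAM1, the widespread mutase, was at 57.3 CPM (34.4 to 87.2) and 51.1 CPM (35.2 to 94.7) and was not DE in any comparison of time points.

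Pyruvate kinase makes pyruvate, and lactate dehydrogenase reduces it to lactate. PKM was at 277 CPM (234 to 397) pre-treatment, 272 CPM (212 to 442) post-treatment and 261 CPM (199.8 to 389) at washout, with a log2 fold change of -0.03 ± 0.11 post-treatment (edgeR adjusted p = 0.871). Counts per gene do not separate its M1 and M2 splice forms. LDHA fell from 598 CPM (529 to 819) to 497 CPM (367 to 609), with a log2 fold change of -0.32 ± 0.10 (edgeR adjusted p = 0.0359, 8 of 9 animals). At washout it was at 479.8 CPM (371 to 663), lower than pre-treatment in 8 of 8 animals (log2 fold change -0.31 ± 0.10, edgeR adjusted p = 0.0408). GAPDH, PGK1, LDHA, ENO1, TPI1, PKM, ALDOA and PGAM1 have near-identical pseudogenes in primate genomes, so their counts depend on how reads that match several copies were treated.

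PGAM2, ENO2 and ENO3 are the low-level isozymes of AT. PGAM2, the muscle mutase, was at 2.41 CPM (0.996 to 3.59) pre-treatment, 1.78 CPM (0.704 to 5.10) post-treatment and 4.61 CPM (1.90 to 9.33) at washout. Its lowest library, post-treatment, rests on 14 counts. It was not DE post-treatment, but it rose at washout against post-treatment (log2 fold change 1.08 ± 0.24, edgeR adjusted p = 0.00177, 8 of 8 animals) and against pre-treatment (log2 fold change 0.92 ± 0.23, edgeR adjusted p = 0.00765, 7 of 8 animals). ENO2, the enolase best known from neurons, went from 4.49 CPM (2.79 to 9.67) to 5.80 CPM (4.37 to 16.9) and 11.2 CPM (9.03 to 16.3). Post-treatment it was higher in 6 of 9 animals without passing the test (log2 fold change 0.49 ± 0.21, edgeR adjusted p = 0.106), and at washout it was higher than pre-treatment in 8 of 8 animals (log2 fold change 1.24 ± 0.21, edgeR adjusted p = 3.23e-04). The pre-treatment and washout ranges of ENO2 overlapped by a single pre-treatment library at 9.67 CPM. ENO3, the muscle enolase, was at 3.14 CPM (2.16 to 6.67), 3.79 CPM (2.45 to 9.09) and 3.23 CPM (2.21 to 5.21), and was not DE in AT. Summed over 9 skeletal muscle markers, AT libraries held 66.2 to 187, 73.3 to 181 and 68.9 to 141 CPM at the 3 time points, with 0 of 9 markers DE, although 2 of 5 slow-fiber genes (TNNI1 and TNNC1) were higher at washout than post-treatment, in a list that summed to 5.88 to 14.0, 3.72 to 11.4 and 7.88 to 14.5 CPM. Against pre-treatment, 1 of the 5 slow-fiber genes (TNNI1) was also DE and higher at washout. The part of muscle RNA in the washout levels of PGAM2 was not tested.

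The pyruvate dehydrogenase complex turns pyruvate into acetyl-CoA, and 4 of its 5 genes fell together. PDHX, which anchors the E3 component, was at 90.3 CPM (56.4 to 103) pre-treatment, 52.4 CPM (36.6 to 67.7) post-treatment and 77.9 CPM (61.3 to 127) at washout, a fall of 41.3% in 9 of 9 animals (log2 fold change -0.77 ± 0.16, edgeR adjusted p = 0.00536) and a rise in 7 of 8 (log2 fold change 0.71 ± 0.16, edgeR adjusted p = 0.00274). DLAT, the E2 acetyltransferase, went from 107 CPM (90.0 to 125) to 73.0 CPM (51.0 to 104), with a log2 fold change of -0.54 ± 0.13 (edgeR adjusted p = 0.0126, 9 of 9 animals) and returned to 105 CPM (75.04 to 146), with a log2 fold change of 0.52 ± 0.14 (edgeR adjusted p = 0.00609). Both genes of the E1 decarboxylase moved the same way. PDHA1, the alpha subunit, fell from 113 CPM (88.8 to 141) to 78.2 CPM (53.6 to 104), with a log2 fold change of -0.49 ± 0.12 (edgeR adjusted p = 0.0127), and rose to 102 CPM (81.8 to 138), with a log2 fold change of 0.47 ± 0.12 (edgeR adjusted p = 0.00590). PDHB, the beta subunit, fell from 95.7 CPM (87.0 to 134) to 83.6 CPM (54.5 to 97.1), with a log2 fold change of -0.38 ± 0.10 (edgeR adjusted p = 0.0183), and rose to 97.7 CPM (75.4 to 127), with a log2 fold change of 0.38 ± 0.10 (edgeR adjusted p = 0.00825). DLD, the E3 dehydrogenase that also serves 2-oxoglutarate dehydrogenase, was lower in 8 of 9 animals without passing the test, at 199.6 CPM (128 to 241) and then 162 CPM (122 to 197), with a log2 fold change of -0.32 ± 0.12 (edgeR adjusted p = 0.0632).

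Pyruvate carboxylase (PC) makes oxaloacetate from pyruvate, which feeds citrate export and glycerol synthesis in fat. PC ranged widely between animals, at 394 CPM (234 to 507) pre-treatment, 234 CPM (47.8 to 461) post-treatment and 391 CPM (250.1 to 717) at washout. Its post-treatment difference missed the threshold (log2 fold change -0.69 ± 0.27, edgeR adjusted p = 0.0872, lower in 7 of 9 animals), and the lowest library was again that of animal 20275. PC rose at washout in 7 of 8 animals (log2 fold change 0.85 ± 0.29, edgeR adjusted p = 0.0293).

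**Figure D2:**
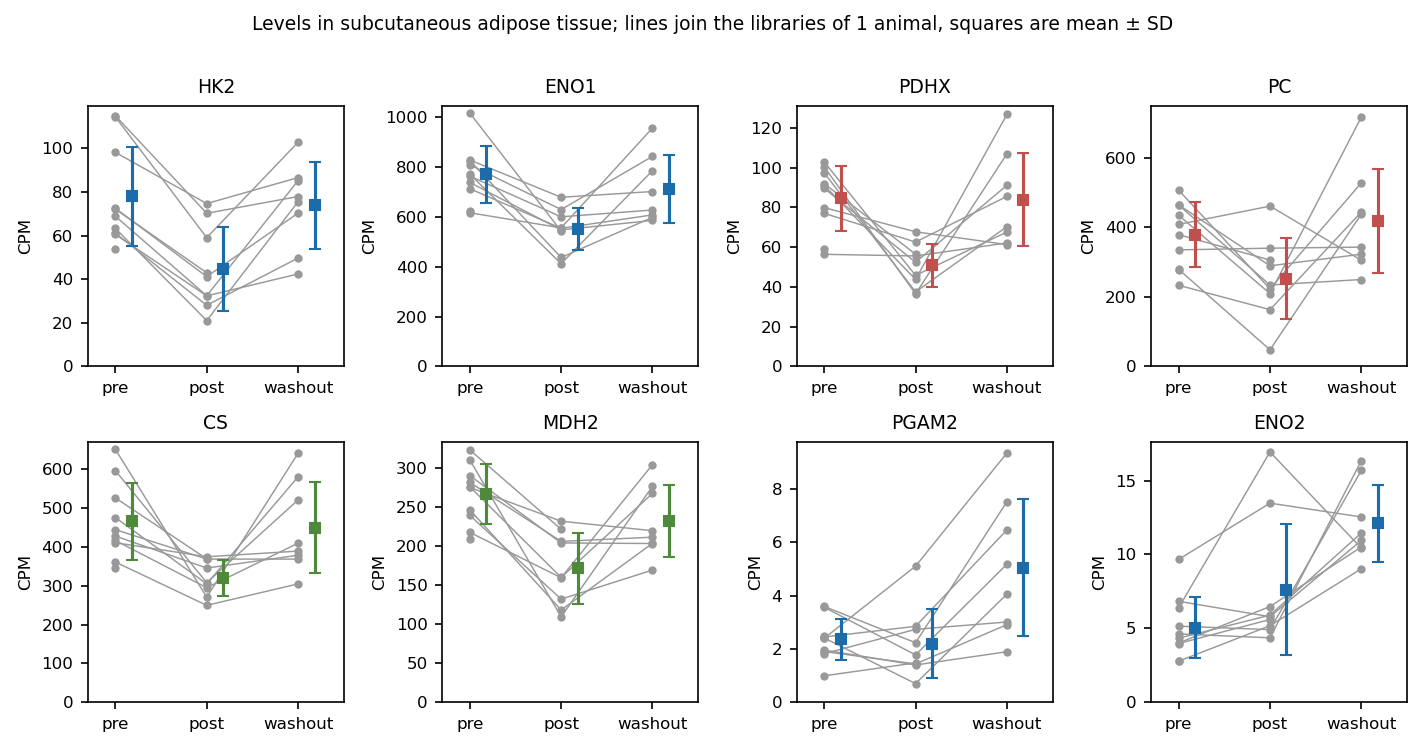
CPM (y axes from 0) of 8 genes in AT at pre-treatment, post-treatment and washout, with each line joining the libraries of 1 animal. HK2, ENO1, PDHX, CS and MDH2 fell in every animal with both biopsies and rose again in most, PC was lower in 7 of 9, and PGAM2 and ENO2 had their highest medians at washout.

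In the TCA cycle the 6 genes that fell act at the entry of acetyl-CoA, at isocitrate, at succinyl-CoA and at malate. CS, citrate synthase, was at 435 CPM (346 to 649.9) pre-treatment, 308 CPM (249 to 374) post-treatment and 399 CPM (304 to 639.8) at washout. It fell by 31.8% in 9 of 9 animals (log2 fold change -0.55 ± 0.11, edgeR adjusted p = 0.00593) and rose in 7 of 8 (log2 fold change 0.47 ± 0.12, edgeR adjusted p = 0.00497). The NAD-dependent isocitrate dehydrogenase is a regulated step of the cycle. IDH3A, its catalytic subunit, fell from 141 CPM (113 to 207) to 103 CPM (79.0 to 122), with a log2 fold change of -0.51 ± 0.12 (edgeR adjusted p = 0.0128, 9 of 9 animals) and was at 127 CPM (97.1 to 192) at washout (log2 fold change 0.36 ± 0.13, edgeR adjusted p = 0.0347). IDH3B, another subunit, fell from 109 CPM (87.0 to 142) to 98.4 CPM (68.0 to 109), with a log2 fold change of -0.34 ± 0.10 (edgeR adjusted p = 0.0325) and rose by 0.34 at washout on the log2 scale. IDH2, the mitochondrial NADP-dependent enzyme, missed the threshold in both steps, with 105 CPM (56.4 to 168), 75.03 CPM (58.9 to 128) and 118 CPM (48.9 to 159). Its log2 fold changes were -0.42 ± 0.14 post-treatment and 0.35 ± 0.15 at washout (edgeR adjusted p = 0.0537 and 0.0711).

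Malate dehydrogenase closes the cycle. MDH2, the mitochondrial enzyme, fell from 276 CPM (209 to 323) to 160.1 CPM (109.6 to 232), by 38.3% in 9 of 9 animals (log2 fold change -0.70 ± 0.13, edgeR adjusted p = 0.00327), and rose to 216 CPM (169 to 304), with a log2 fold change of 0.50 ± 0.14 (edgeR adjusted p = 0.00818). MDH1, the cytosolic enzyme of the malate-aspartate shuttle, fell from 362 CPM (306 to 495) to 279 CPM (223 to 359), with a log2 fold change of -0.38 ± 0.11 (edgeR adjusted p = 0.0280), and its washout level of 348 CPM (257 to 436) was not DE (edgeR adjusted p = 0.0733). FH, fumarase, had an edgeR adjusted p of 0.0452 post-treatment but a log2 fold change of -0.23 ± 0.08, inside the fold limit, from 79.9 CPM (71.7 to 106) to 72.6 CPM (61.4 to 82.2).

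The middle steps of the cycle held fewer calls. OGDH, the E1 component of 2-oxoglutarate dehydrogenase, went from 339 CPM (266 to 419) to 282 CPM (195 to 313), with a log2 fold change of -0.29 ± 0.11 (edgeR adjusted p = 0.0720), and at washout it was at 280.3 CPM (177 to 344), lower than pre-treatment (log2 fold change -0.36 ± 0.11, edgeR adjusted p = 0.0287, 7 of 8 animals). DLST, its E2 component, was at 173 CPM (160.1 to 254) and 175 CPM (130.1 to 198), with a log2 fold change of -0.18 ± 0.08. Of succinyl-CoA synthetase, the alpha subunit SUCLG1 fell from 202 CPM (158 to 236) to 172 CPM (116 to 192), with a log2 fold change of -0.33 ± 0.10 (edgeR adjusted p = 0.0346) and rose to 193 CPM (156 to 225), with a log2 fold change of 0.27 ± 0.11 (edgeR adjusted p = 0.0476). The beta subunits SUCLA2 and SUCLG2, which set the nucleotide that is made, had log2 fold changes of -0.25 and -0.16 and were not DE.

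Succinate dehydrogenase is both a TCA cycle enzyme and complex II of the respiratory chain, and none of its 4 genes was DE post-treatment. SDHA, the flavoprotein, was at 200.3 CPM (179 to 246) and 192 CPM (148 to 223), with a log2 fold change of -0.12 ± 0.08 (edgeR adjusted p = 0.263), and SDHB, the iron-sulfur subunit, at 111 CPM (92.0 to 131) and 98.5 CPM (72.1 to 107), with a log2 fold change of -0.21 ± 0.08 (edgeR adjusted p = 0.0895). The membrane anchors SDHC and SDHD had log2 fold changes of -0.27 ± 0.12 and 0.03 ± 0.09. SDHC was at 25.3 CPM (18.9 to 31.6) pre-treatment and lower at washout, at 20.0 CPM (13.7 to 25.6), with a log2 fold change of -0.35 ± 0.12 (edgeR adjusted p = 0.0463).

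At washout, 31 of the 39 genes (15 of 16 of the TCA cycle) had a log2 fold change below 0 against pre-treatment, with a median of -0.09, where 53.1% of all genes were below 0 with a median of -0.02, and 7 of 8 animals had a median below 0. Of the 39, 3 genes were DE and lower (LDHA, OGDH and SDHC) and 2 DE and higher (PGAM2 and ENO2), where 7.96% of all genes were lower and 12.5% higher. The number of lower calls moved with the setting. It was 5 with a term for the library identifier series, 4 with limma, 4 without animal 24849, 0 with scaling by library size alone, and 0 without animal 20261, 20275, 22130, 23004 or 26292, each left out in turn. PGAM2 and ENO2 were DE in all 20 alternatives, although the alternative without a fold limit cannot lose a call.

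Across the animals, the median post-treatment change over the 39 genes ran from -0.82 (log2) in animal 22130 to -0.17 in animal 20261, below 0 in all 9. Animal 22130 had the lowest post-treatment level of 15 of the 39 genes, and without it 9 genes were DE, all lower, where the share of all genes called lower was 3.83% in place of 8.49%. CS, DLAT, ENO1, HK2, IDH3A, MDH2, PDHA1, PDHX and PGK1 were DE and lower in all 20 alternatives, which include each animal left out in turn. The other 8 lower calls were lost in at least 1 alternative, most often PFKM (DE in 8 of 20), LDHA (11), ALDOC and IDH3B (14 each) and SUCLG1 (15). At washout against post-treatment the animals' medians ran from -0.01 to 0.71, and 11 of the 19 genes were DE in all 20 alternatives (ALDOA, CS, DLAT, GAPDH, GPI, HK2, MDH2, PDHA1, PDHB, PDHX and PGAM2). SUCLG1 and ALDOC were DE in 8 and 9 of the 20. Among the 20, dropping the fold limit cannot lose a call. Animal 19832 has AT counts only pre-treatment, so leaving it out hardly touches the changes within animals. Keeping a call in these alternatives was thus no test of it. Library identifiers fall into 3 series, whose meaning the labels do not give. The post-treatment AT library of animal 22130 is in another series than its pre-treatment and washout AT libraries. With a term for the series, 16 genes were DE and lower post-treatment, where 8.69% of all genes were lower. At washout against post-treatment 15 were higher, where 16.2% of all genes were higher, and the median over the 39 was 0.18. Within the last series, 6 animals had both biopsies and 35 of 39 genes had a mean change below 0 post-treatment, with a median of -0.27. In the 3 animals with post-treatment and washout libraries in that series, 26 of 39 genes were above 0 with a median of 0.09, against 0.27 for the fit over all animals. With 3 animals against pre-treatment, 32 of 39 genes were below 0 with a median of -0.16.

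**Figure D3:**
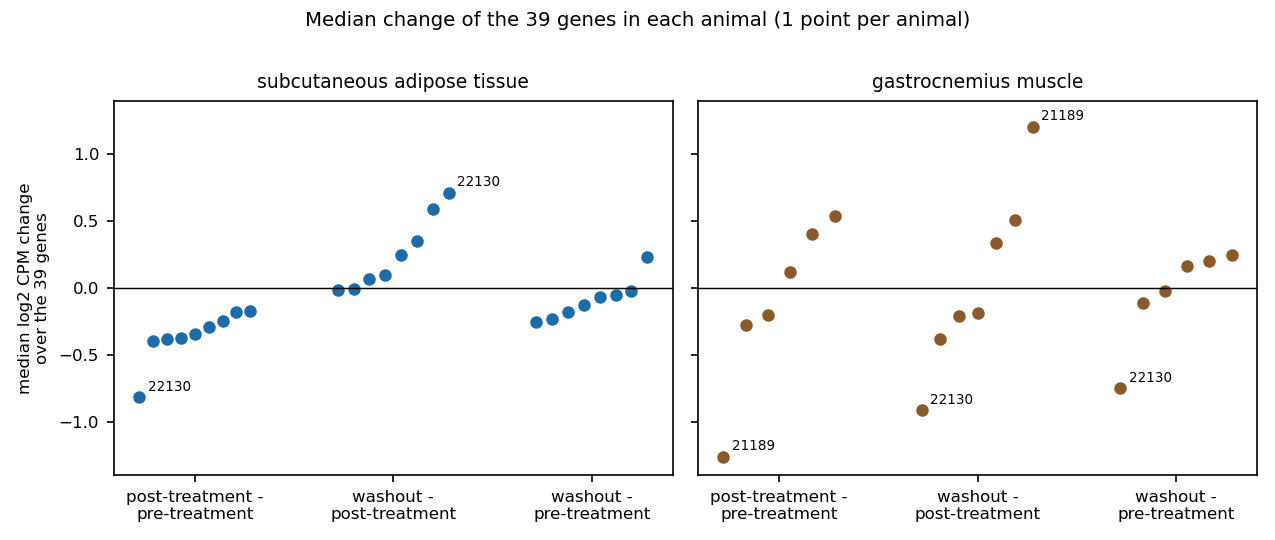
Median log2 CPM change over the 39 genes (y axis) in each animal (points) for the 3 comparisons of time points, in AT (left) and SM (right). All 9 AT animals lie below 0 post-treatment, while SM animals lie on both sides, with 21189 at -1.26 post-treatment and 22130 at -0.91 at washout against post-treatment.

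Markers of cell types also moved in AT. The 4 adipocyte markers in the table summed to a median of 18036 CPM pre-treatment, 16411 post-treatment and 15568 at washout, with ranges of 15564 to 32426, 9439 to 28012 and 10265 to 29734. Of these, LEP and PLIN1 were DE and lower post-treatment (log2 fold changes -1.93 and -0.62), and LEP was higher at washout (1.87). Within animals, the adipocyte sum went post-treatment from 29131 to 9439 CPM in animal 22130 and from 26704 to 11109 in 20275. It rose in 21866 (16840 to 20656) and 24849 (18425 to 19708), and fell in the other animals with both biopsies. The 10 macrophage markers summed to medians of 1299, 2677 and 664 CPM (ranges 651 to 2379.7, 959 to 5413 and 394 to 2124), with 3 of 10 DE and higher post-treatment and 10 of 10 lower at washout against post-treatment. The 6 progenitor and matrix markers had medians of 18065, 27937 and 16310.2 CPM (ranges 11966 to 27746, 15414 to 39943 and 9896 to 33900.1), with 1 of 6 higher post-treatment (COL1A1) and 2 of 6 lower at washout. The 5 erythroid markers summed to medians of 2677, 851 and 5107 CPM (ranges 327 to 10553, 454 to 7643 and 457 to 11988), with 1 of the 3 tested lower post-treatment and 3 of 3 higher at washout. Their part in the changes of the 39 genes was not tested.

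Genes that work beside these enzymes were counted in the same way, against 8.49% of all genes lower and 6.98% higher post-treatment. Among 22 tested enzymes of neighboring reactions, 6 were DE and lower post-treatment and 1 higher. Those lower included FBP2, a fructose-1,6-bisphosphatase (log2 fold change -1.68), the malic enzymes ME1 (-1.34) and ME3 (-0.69), LDHB, the other lactate dehydrogenase subunit (-0.83), and PGM1, which links glycogen to glycolysis (-0.51). Of 20 regulators, 1 was lower and 2 were higher. PDK4, a kinase that switches pyruvate dehydrogenase off, rose in all 9 animals (log2 fold change 1.12 ± 0.19, edgeR adjusted p = 0.00235) and fell in all 8 at washout (-1.29). PDP1, a phosphatase that switches the complex on, was also higher (0.31), and PDK3, another of the kinases, was lower (-0.61). Of 13 transporters, 3 were lower (SLC25A10, SLC25A11 and SLC25A1, carriers of dicarboxylates, 2-oxoglutarate and citrate, at -0.94, -0.36 and -0.79). Of 8 glycogen genes, 4 were lower (GBE1, GYS1, PYGB and PYGM, at -0.57, -0.88, -0.47 and -0.83). At washout against post-treatment, where 17.8% of all genes were lower and 17.6% higher, the neighboring enzymes had 7 lower and 6 higher, the regulators 4 lower and 2 higher, and the transporters and glycogen genes 3 higher each and 0 lower.

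Isozyme choice was followed as the log2 ratio of the CPM of paired genes, which is a ratio of reads and not of molecules, since lengths were not used. In AT, HK2 over HK1 had a median of -1.73 pre-treatment, -2.69 post-treatment and -1.46 at washout. This ratio was lower post-treatment within all 9 animals, with a mean change of -0.87 (exact sign-flip permutation test, two-sided p = 0.00391, the smallest that 9 animals allow, and 0.0703 after adjustment over 54 tests). ENO2 over ENO1 was higher in all 9 (mean 0.96, medians -7.42 and -6.64), and LDHB over LDHA lower in all 9 (mean -0.54, medians -2.50 and -2.89), each with the same exact p. MDH2 over MDH1 was lower in 8 of 9 (mean -0.32, adjusted exact p = 0.117). PFKM over PFKL was lower in 6 of 9 (mean -0.25) and higher in 6 of 8 at washout against post-treatment (mean 0.50). PGAM2 over PGAM1 was higher in all 8 at washout against pre-treatment (mean 0.98, adjusted exact p = 0.0844). Of the 54 tests, over 9 ratios, 3 comparisons and 2 tissues, 0 passed 0.05 after adjustment. In SM the smallest exact p was 0.03125 with 6 animals and 0.015625 with 7. An SM ratio could thus pass only if many others were as low, so the SM tests decide little. At washout against pre-treatment, LDHB over LDHA (mean 0.60) and MDH2 over MDH1 (mean 0.37) were higher in all 6 SM animals, at that smallest p.

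In SM, no member was DE in any comparison of time points. Post-treatment against pre-treatment had 0 of 39, where 0% of genes were called lower and 0% higher, and 0 members had an unadjusted p under 0.05. Washout against post-treatment had 0 (0.00793% of genes lower, 0.182% higher), with 1 member under the unadjusted limit, and washout against pre-treatment had 0 (0% lower, 0.0634% higher), with 0 under it. DESeq2 and limma also called 0 members in each. For washout against pre-treatment in SM, the paper reports many more DE genes than were called here, with limma and the same limits. The reason for that difference was not tested. The log2 fold changes ran from -0.40 to 0.32, from -0.51 to 0.43 and from -0.51 to 0.49. Animals moved in opposite directions, with median changes over the 39 genes from -1.26 to 0.54 post-treatment. HK2 was at 44.0 CPM (15.1 to 103), 44.3 CPM (14.8 to 83.6) and 52.6 CPM (10.96 to 85.7) in SM, with a log2 fold change of -0.00 ± 0.20 post-treatment, where the AT value was -0.90 ± 0.13. PFKM was at 4797 CPM (3891 to 5763), 4151 CPM (1565 to 9049) and 5121 CPM (4562 to 6442). CS was at 422 CPM (256 to 649), 432 CPM (174 to 703) and 483 CPM (352 to 648). These ranges show the wide spread of muscle libraries at each time point.

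Of the 8 post-treatment SM libraries, 4 held less muscle marker RNA than any pre-treatment library. The 9 muscle markers summed to 57086 CPM in animal 21189, 105713 in 21866, 108898 in 24849 and 129918 in 20275, where the pre-treatment libraries held 152973 to 241314. The progenitor and matrix markers summed to 16892, 13606, 4496 and 7082 CPM in the same libraries, against 431 to 4616 pre-treatment. Their part in the SM values was not tested. The post-treatment library of animal 21189 was lowest for 28 of the 39 genes. The washout library of animal 22130 was lowest for 29 of the 39. Leaving out any 1 animal still called 0 members in all 3 comparisons. The library identifier series differs between the time points of most SM animals, and within 1 series too few had both biopsies for a value. With the series in the model, 4 members were DE and higher at washout against post-treatment (HK1 1.18, OGDH 1.26, SDHC 1.10 and CS 0.75, log2), where 11.4% of all genes were called higher and 9.57% lower. Against pre-treatment 1 member was higher (SDHC 0.99), where 5.65% of all genes were higher and 5.07% lower. The members were thus called no more often than genes in general in that model.

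Before treatment, AT and SM differed in 34 of the 39 genes, where 77.1% of all tested genes differed. The widest differences among the 39 were in isozyme genes. Both tissues were placed on 1 CPM scale for this comparison, and SM minus AT was tested over 13662 genes. SM was DE and higher for 29 of the 39 genes and lower for 5, against 35.3% and 41.8% of all genes, and scaling by library size alone gave 22 higher and 8 lower. That scaling moved the median of all genes from -0.16 to -0.90 (log2), and CS, DLAT, DLST and IDH3B then changed sign. Their calls were lost, as were those of HK1, MDH1 and SDHC. The groups did not overlap for 28 of the 39 genes, against 47.2% of all genes tested, and overlapped for 11. The lower 5 were ALDOC (log2 difference -6.99 ± 0.75), PGAM1 (-3.16 ± 0.29), PC (-2.76 ± 0.30), ENO1 (-2.04 ± 0.18) and PFKL (-1.69 ± 0.16), each of them apart from AT in every library. ENO3 was at 2.42 CPM (1.68 to 5.18) in AT and 15733 CPM (10967 to 22947) in SM (log2 difference 12.34 ± 0.41, edgeR adjusted p = 2.92e-25). PGAM2 was at 1.88 CPM (0.791 to 2.79) and 2583 CPM (1741 to 5624), with a log2 difference of 10.51 ± 0.41. PFKM was at 36.6 CPM (31.0 to 47.6) and 6387 CPM (5216 to 7932), with a log2 difference of 7.44 ± 0.26.

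The shared glycolytic enzymes were also higher in SM: GAPDH by 5.15, ALDOA by 5.08, TPI1 by 4.87, PKM by 4.20, LDHA by 3.20, PGK1 by 3.01 and GPI by 2.28 on the log2 scale. TCA cycle genes had log2 differences from 0.04 for IDH3A to 2.91 for IDH2. Of these, 13 of 16 were DE, all higher in SM, where 77.1% of all genes were called and 35.3% were higher. The calls of CS, DLST, IDH3B, MDH1 and SDHC were lost with scaling by library size alone. HK2 was at 55.5 CPM (41.7 to 90.4) in AT and 60.0 CPM (20.9 to 137) in SM, with overlapping groups (log2 difference -0.12 ± 0.23, edgeR adjusted p = 0.633). The other 4 not called were IDH3A, ENO2, OGDH and SUCLG2. As log2 ratios of reads, PFKM over PFKL had a median of -1.26 in AT and 7.92 in SM. The medians were -4.42 and 8.85 for PGAM2 over PGAM1, -7.74 and 6.68 for ENO3 over ENO1, and 2.14 and -10.88 for ALDOC over ALDOA. ALDOC reached 99.1 CPM in 1 SM library against a median of 7.49. On the scale within SM, the 4 adipocyte markers summed to 42.7 to 765 CPM in the pre-treatment libraries, highest in animal 24849. The part of adipose RNA in the SM levels was not tested.

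**Figure D4:**
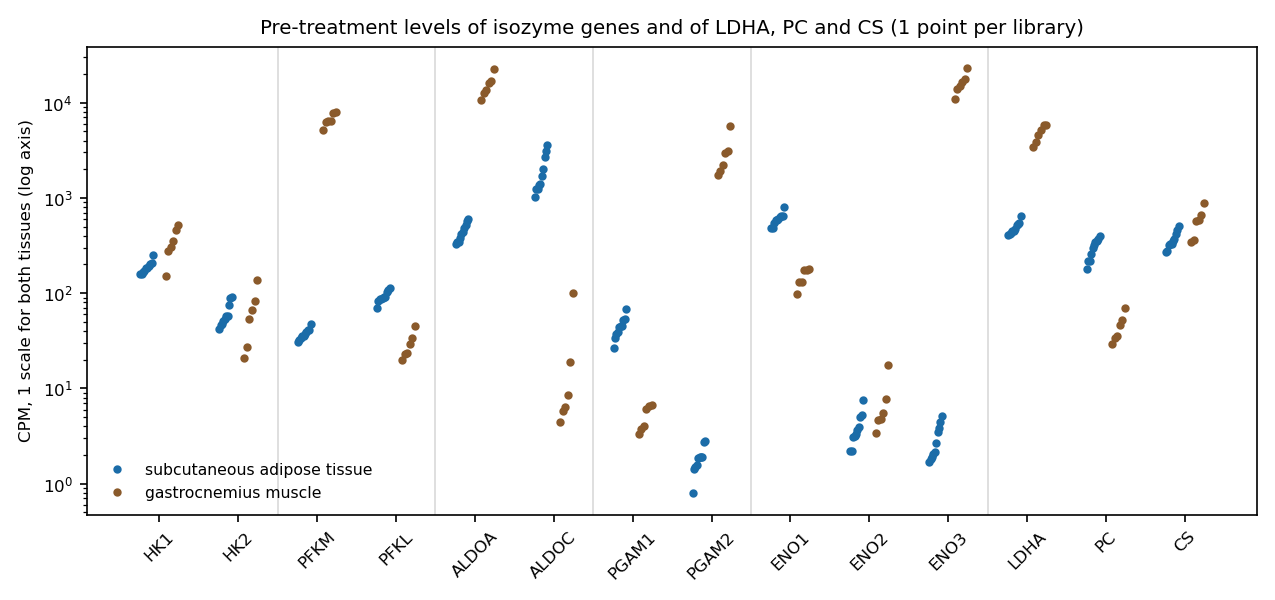
Pre-treatment CPM on 1 scale for both tissues (log y axis) of isozyme genes and of LDHA, PC and CS (x axis), with 1 point per library, AT in blue and SM in brown. PFKM, PGAM2 and ENO3 are far higher in SM, ALDOC is lower, and HK2 and CS overlap.

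Whether the tissues differed in their response was tested as the SM change minus the AT change. Post-treatment against pre-treatment, 0 members differed (0% of genes lower, 0.0487% higher in SM), with 1306 of 12322 genes at an unadjusted p under 0.05, and DESeq2 called 1 member, HK2, with a log2 difference of 0.94 with an adjusted p of 0.0283. The absence of DE genes in SM is thus not shown to be a different response from that in AT. For washout against post-treatment, 6 members differed, all with a lower change in SM, against 11.9% of genes lower and 10.8% higher. They were HK2 (-0.83 ± 0.23, edgeR adjusted p = 0.00932), PGAM2 (-1.12 ± 0.35), ENO1 (-0.57 ± 0.20), ENO2 (-1.13 ± 0.42), IDH3B (-0.57 ± 0.19) and SUCLG1 (-0.64 ± 0.19). The count was 14 with scaling by library size alone, which moved the median of all genes from -0.03 to -0.25, and 3 without the animal as a block.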

How the data were processed

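Stranded mRNA libraries of subcutaneous AT and gastrocnemius SM biopsies were sequenced by the authors with paired 50-nt reads and aligned with STAR to the MacaM rhesus genome. The authors deposited raw counts per gene, with no normalization, in 1 table. The tool that counted the reads is not given in the sources used here. Of 51 labelled samples, 48 had counts (14455195 to 23940980 per library, median 18578869), and 3 SM samples were not analysed here. Of 16103 entries, 70 that repeated a gene identifier were dropped.

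Genes that reached 0.5 CPM in 10% or more of a tissue's libraries entered the test of edgeR 4.0.16 in R 4.3.3 (trimmed mean of M-values scaling, robust quasi-likelihood test, time point and animal in the model). Benjamini-Hochberg adjustment covered all genes tested. CPM used a prior count of 2 on the log2 scale for changes within animals. A joint scaling of both tissues served the tissue comparison and the interaction. The labels name the animal, and libraries of the same animal deviated together, with a median r of 0.35 over 25 AT pairs and 0.28 over 19 SM pairs (-0.04 and -0.05 between animals). With the animal in the model, the edgeR p-values rest on the spread left after level differences between animals are removed. In the tissue comparison both tissues shared the animal term. The exact tests of ratios rest on the changes within animals. The test was tried on simulated data first.

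Alternatives were library size alone, DESeq2 1.42.0, limma 3.58.1, no filter and a stricter filter (at least 10 counts in every library), no fold limit, no animal block, a term for the library identifier series, a fit on only the time points compared, edgeR's earlier method (chosen after seeing the data), and each animal left out. Members and gene lists were chosen with earlier results of these data known. A few genes of the neighboring lists are counted but not reported by name here. All members were named, with full values for those DE (the 10 with the smallest adjusted p in each comparison) and for the isozyme pairs.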

Additional observations from a re-analysis of the deposited data

Results flagged for a closer look

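In 13 of 234 groups of 6 to 10 libraries, the lowest or highest library of a gene lay far from the rest by Dixon's test, where chance gives about 1 in 20 groups. In AT post-treatment, animal 21866 was lowest for TPI1 (169 CPM, next 207), animal 20275 for PC (47.8, next 163), and animal 22130 for SDHA (148, next 185) and SDHB (72.1, next 88.2), while 22130 was highest for ENO3 (9.09, next 4.12). In AT pre-treatment, animal 20456 was highest for DLST (254 CPM, next 204) and animal 21189 lowest for SDHC (18.9, next 24.1). In AT at washout, animal 21189 was lowest for PGK1 (224 CPM, next 309) and animal 24849 highest for SDHB (134, next 106). In SM, animal 20275 was highest for IDH3B pre-treatment (164 CPM, next 88.3) and for OGDH at washout (588, next 367). Animal 21189 was lowest for PGAM2 post-treatment (526 CPM, next 1424), in the library low in muscle markers, and animal 19832 was lowest for PFKL at washout (10.96, next 17.2).

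The change from post-treatment to washout differed between SM and AT in edgeR's interaction test for 6 of the 39 genes, all lower in SM. Of all genes, 11.9% had a lower and 10.8% a higher change in SM, so the count of members is near the general rate. The SM change minus the AT change was -0.83 for HK2, -1.12 for PGAM2, -0.57 for ENO1, -1.13 for ENO2, -0.57 for IDH3B and -0.64 for SUCLG1 (log2). ENO1, PGAM2 and SUCLG1 were called in all 4 alternatives run on this comparison, while HK2, ENO2 and IDH3B were not.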

How the results depend on the processing

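Each AT gene that was DE kept its direction in all 20 alternatives (without a fold limit the fit is the same), and the counts moved with a few choices. Leaving out each animal in turn gave 9 to 18 members lower in AT post-treatment (9 without 22130, where 3.83% of all genes were lower), 14 to 20 higher at washout against post-treatment, and 2 to 6 DE at washout against pre-treatment (2 without 20261, 20275, 22130, 23004 or 26292). Using only the post-treatment and washout libraries gave 12 higher in place of 19, and library size alone gave 2 in place of 5 at washout against pre-treatment. With a term for the library identifier series, SM had 4 members higher at washout against post-treatment and 1 against pre-treatment, in place of 0, while 11.4% and 5.65% of all genes were called higher, and library size alone moved the all-gene median of the first from -0.03 to -0.16 without a call. In the interaction, DESeq2 called 1 member post-treatment in place of 0, and at washout library size alone called 14 and the fit without the animal as a block 3, in place of 6. In the tissue comparison, library size alone reversed CS (-0.12), DLAT (-0.14), DLST (-0.10) and IDH3B (-0.19), and these calls were lost. HK1 (0.02), MDH1 (0.08) and SDHC (0.36) kept their direction but also lost their calls. The causes were not tested.

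The animal was the replicate block in all main tests. Without the block, AT had 15 members lower post-treatment, 17 higher at washout against post-treatment and 5 DE at washout against pre-treatment, SM had 0 in each, and 1 isozyme ratio passed in place of 0. The lowest level of a member in AT was 0.704 CPM, for PGAM2, and the size of change that these depths and 6 to 9 animals can detect was not tested.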

Other observations

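In AT at washout against pre-treatment, 7.96% of all genes were lower and 12.5% higher. Of the 20 regulators, 3 were DE and lower and 1 higher, and of the 8 glycogen genes 3 were lower and 0 higher. Of the 22 neighboring enzymes and the 13 transporters, 0 were DE. PDPR, a regulatory subunit of pyruvate dehydrogenase phosphatase, was lower than pre-treatment in 8 of 8 animals (log2 fold change -1.04 ± 0.18, edgeR adjusted p = 2.72e-04). PFKFB2, which makes the activator of phosphofructokinase, was also lower in 8 of 8 (-0.52 ± 0.12, edgeR adjusted p = 0.00368), and PFKFB4, of the same family, was higher in 8 of 8 (0.58 ± 0.11, edgeR adjusted p = 5.30e-04). The glycogen genes PYGL and GBE1 were lower (-0.44 and -0.30). Post-treatment, GBE1 was already DE and lower, while PDPR, PFKFB2, PFKFB4 and PYGL were not DE (-0.24, 0.04, 0.29 and -0.26).

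From post-treatment to washout, PCK1, the cytosolic enzyme that makes phosphoenolpyruvate for glycerol synthesis in fat, fell in 8 of 8 animals (log2 fold change -1.94 ± 0.45, edgeR adjusted p = 0.00312), the opposite direction to PC. ACLY, which splits exported citrate, rose in 7 of 8 (1.14 ± 0.37, edgeR adjusted p = 0.0211). HK3, a hexokinase best known from myeloid cells, was lower (-1.45), as were all 10 macrophage markers, and its part was not tested further.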
